A study of Mus musculus with 8 samples.

Results

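Vimentin (Vim), nestin (Nes), synemin (Synm), desmin (Des) and the nuclear lamins (Lmna, Lmnb1 and Lmnb2) are the intermediate filament genes described here. They were chosen by their gene symbols, and 7 of the 24346 listed genes are members. Total RNA was sequenced from 8 primary cultures of adipose-derived stem cells (ADSCs) of wild-type BALB/c mice, with 1 library per mouse and culture. The cells came from the gonadal fat of adult male mice and carried no transgene or deletion. In the 2D group, cells of mice 2, 3, 4 and 5 were grown in conventional culture, and in the 3D group, cells of mice 1, 4, 5 and 7 were grown as organoids in Matrigel, a basement membrane extract, in the setting of a protocol that uses media conditioned with Wnt3a and R-Spondin1. The passage and the medium of each library are not given in the sources used here. Mice 4 and 5 gave a library of each culture. The question was how the filament and lamina genes differed between 3D and 2D cultures.

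Intermediate filaments are rope-like polymers of the cytoskeleton. Vimentin forms the cytoplasmic network of mesenchymal cells such as fibroblasts, desmin is its counterpart in muscle and some pericytes, and nestin and synemin are large proteins that join these polymers rather than building filaments alone. Epithelial cells build their network from keratins such as Krt8 and Krt18. The lamins form a mesh under the inner nuclear membrane. Lamins A and C come from the single gene Lmna by alternative splicing, so a gene-level value cannot separate them, whereas Lmnb1 and Lmnb2 encode the B-type lamins.

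The promoter windows of Vim, Des and Synm are shown because these were the cytoplasmic filament genes whose levels passed the test between the cultures. Each window is RefSeq sequence of GRCm38.p6 that runs from 250 bases before to 50 bases after the start of the gene in RefSeq, written 5′ to 3′ on the strand of the gene. For Vim and Des this start is not the GENCODE M21 gene start given after the sequences, and the Vim window lies wholly inside the GENCODE gene. They lie at chr2:13574061-13574360 for Vim, chr1:75360042-75360341 for Des and chr7:67759693-67759992 for Synm. Capitals mark matches, on either strand, to the TATA box (TATAAA), to the box with the letters CCAAT, which reads ATTGG on the other strand, or to the GC box (GGGCGG), which reads CCGCCC there.
Vim: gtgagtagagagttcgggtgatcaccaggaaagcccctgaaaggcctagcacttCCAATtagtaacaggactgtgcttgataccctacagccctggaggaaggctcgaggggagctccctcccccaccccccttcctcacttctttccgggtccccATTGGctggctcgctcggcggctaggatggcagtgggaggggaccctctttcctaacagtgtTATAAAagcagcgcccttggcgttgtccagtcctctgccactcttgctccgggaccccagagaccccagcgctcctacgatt
Des: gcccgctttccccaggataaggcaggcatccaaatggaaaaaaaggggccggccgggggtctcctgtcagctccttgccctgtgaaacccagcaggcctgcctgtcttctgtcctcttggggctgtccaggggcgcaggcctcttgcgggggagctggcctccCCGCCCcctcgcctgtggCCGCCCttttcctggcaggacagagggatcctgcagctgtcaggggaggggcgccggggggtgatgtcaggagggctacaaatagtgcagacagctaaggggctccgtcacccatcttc
Synm: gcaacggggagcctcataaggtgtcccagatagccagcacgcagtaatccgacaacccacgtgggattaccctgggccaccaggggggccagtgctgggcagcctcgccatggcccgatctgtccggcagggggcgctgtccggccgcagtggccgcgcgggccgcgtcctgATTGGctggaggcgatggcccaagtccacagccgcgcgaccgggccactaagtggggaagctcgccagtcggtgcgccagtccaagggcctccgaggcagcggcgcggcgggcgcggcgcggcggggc

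The Vim window holds TATAAA at -32 to -27 from its start and CCAAT at -196 to -192, and on the other strand at -94 to -90. The Des window holds the GC box on the other strand at -87 to -82 and -69 to -64, and the Synm window holds CCAAT on the other strand at -78 to -74. Of 32817 mouse promoter windows of this length, 13.6% held TATAAA, 37.4% held CCAAT and 35.6% held GGGCGG on either strand. No match was found in these windows to CACCTG, which SNAI and ZEB proteins bind and which 20.2% of all windows held, to the AP-1 site TGACTCA (5.2%), to the TEAD site ACATTCC (3.85%) or to the CArG box (1.63%). These matches describe letters in the windows, and no binding or methylation was measured.

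On the GRCm38 build with GENCODE M21, Vim lies at chr2:13573927-13582826 on the plus strand, Des at chr1:75360329-75368579 on the plus strand and Nes at chr3:87971078-87980451 on the plus strand. Synm lies at chr7:67730160-67759742 on the minus strand, Lmna at chr3:88480147-88509956 on the minus strand, Lmnb1 at chr18:56707813-56753424 on the plus strand and Lmnb2 at chr10:80901203-80918245 on the minus strand. All of these genes are protein coding, and each value covers the whole gene.

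The deposited values were FPKM, that is, a count of fragments scaled by the length of the transcript and the depth of the library, which allows levels to be compared between genes per length. They came without read counts, and the depth estimated from the steps between low values came to 16.42 to 17.34 M fragments per 2D library and 14.52 to 15.68 M per 3D library. Levels below are quantile normalized FPKM unless deposited FPKM is named. Log2 fold changes are 3D minus 2D on the log2(FPKM + 1) scale, which understates the change of low genes, and adjusted p values come from limma over all genes tested. The labelled cell type was checked against markers. Of 7 mesenchymal stem cell markers, Thy1, Eng, Pdgfra and Pdgfrb were lower in 3D. In the 3D libraries Pdgfrb was at 0 and Thy1 at no more than 0.0862 deposited FPKM. Ly6a was higher, but its 3D library of mouse 1, at 50.3 deposited FPKM, lay within the 2D range of 26.0 to 189. Cd44 did not pass the test, nor did Nt5e, whose 3D libraries all lay below those of 2D. The epithelial markers Epcam and Cdh1 were at no more than 0.031 and 0.725 deposited FPKM in 2D and at least 212 and 227 in 3D. The 2D libraries of mice 3 and 4 stood apart from those of mice 2 and 5. The deposited FPKM of 4 mesothelial markers (Msln, Upk3b, Wt1 and Lrrn4) summed to 528 and 1506 in the libraries of mice 3 and 4 but to 0.339 and 0.222 in those of mice 2 and 5. Krt8 stood at 27.8 and 296 deposited FPKM in the libraries of mice 3 and 4 and at 0 and 0.0363 in those of mice 2 and 5. Results are therefore also given without both of these libraries.

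Of the 7 genes, Vim, Des, Lmna and Lmnb1 were lower in 3D and Synm was higher, whereas Nes and Lmnb2 did not pass the test. The same 5 genes had libraries that did not overlap between the cultures. Among all 18862 genes tested, 41.5% passed the adjusted threshold of 0.05, with 21.2% higher and 20.3% lower in 3D, and 42.5% did not overlap, with 21.6% higher and 20.9% lower in 3D. All 7 genes entered the test, Des through its 2D libraries alone. In 2D, Vim was the highest of the 7 genes, followed by Lmna. Lmnb1 and Nes overlapped in their ranges, as did Nes, Lmnb2 and Des, and Synm overlapped with Des. In 3D, Lmna was the highest. Lmnb1, Nes, Lmnb2 and Vim followed with overlapping ranges, Synm overlapped with Vim, and Des was at 0.

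**Figure D1:**
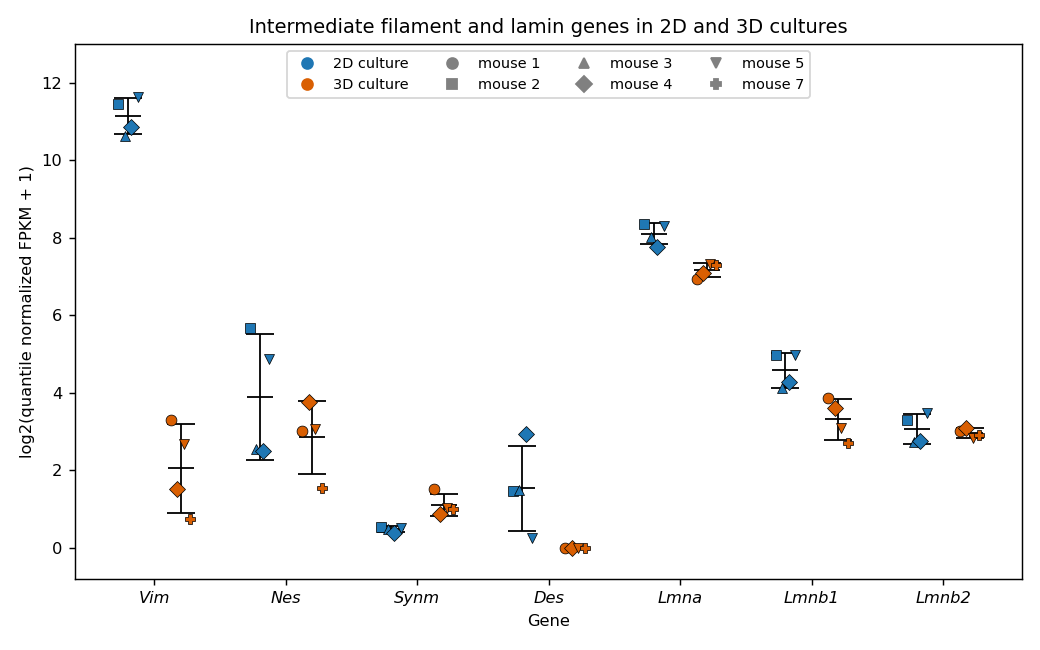
Levels of the 7 genes in each library, as log2(quantile normalized FPKM + 1), with 2D libraries in blue and 3D libraries in orange, a symbol per mouse, and bars for the mean ± SD over 4 libraries. Vim is separated by the widest gap, from at least 1587 FPKM in 2D to at most 8.82 FPKM in 3D, and the 2D libraries of Nes split into 2 high and 2 low values.

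Vim, which encodes the main filament protein of mesenchymal cells, showed by far the widest difference among the 7 genes. Its level was 2779, 1587, 1860 and 3155 FPKM for mice 2, 3, 4 and 5 in 2D, and 8.82, 1.85, 5.38 and 0.667 FPKM for mice 1, 4, 5 and 7 in 3D. Every 2D library was far above every 3D library. The mean was 2345 ± 743 FPKM for the 2D and 4.18 ± 3.68 FPKM for the 3D libraries (SD, n = 4 each). The log2 fold change was -9.08 (SE 0.55, 95% interval -10.36 to -7.81), with an adjusted p of 1.5e-05 by limma. Vim ranked between 21 and 48 among all listed genes by deposited FPKM in the 2D libraries and between 6930 and 12108 in the 3D libraries. Among all genes called lower in 3D, its fitted fall was number 10 in size on the log2(FPKM + 1) scale. The largest fall possible on that scale is set by the 2D level of a gene, which favours abundant genes such as Vim. Within mouse 4 the difference was -9.35 on the log2 scale, and within mouse 5 it was -8.95.

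The transcript was still detected in 3D. The lowest 3D value, that of mouse 7, corresponds to about 31.0 fragments, and the highest, that of mouse 1, to about 397 fragments, so counting error does not limit the order of the cultures. In bulk RNA, fewer cells that express Vim and less Vim RNA per cell cannot be told apart. Smooth muscle genes moved with Vim. Acta2, Actg2, Cnn1 and Myh11 were lower in 3D, and the deposited FPKM of the 8 genes of the muscle list summed to between 832 and 3826 in 2D and between 0.793 and 1.54 in 3D, with Myod1 at 0 in every library. Their part in the result was not tested. Without the 2D libraries of mice 3 and 4, when 42.1% of the genes tested passed, the log2 fold change of Vim was -9.47, with an adjusted p of 3.8e-04 by limma. When the mouse was fitted as a block, leaving 1 residual degree of freedom, limma called 0 of the genes tested (0%), although 5216 (27.7%) had an unadjusted p below 0.05. In that fit the difference of Vim was -9.15, with an adjusted p of 0.111.

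Des, the muscle counterpart of Vim, was detected in 2D alone. Its level was 1.76, 1.80, 6.66 and 0.189 FPKM for mice 2, 3, 4 and 5 in 2D, and 0 in each 3D library. The 2D library of mouse 4 was the highest, and that of mouse 5 rested on only about 6.02 fragments. The deposited mean of 2.34 FPKM in 2D was at least 34.3-fold higher than the 0.0682 FPKM that 3 fragments in a 3D library would give, and at least 15.0-fold higher without the 2D library of mouse 4. The fitted log2 fold change was -1.53 (SE 0.49, 95% interval -2.67 to -0.40), with an adjusted p of 0.0378 by limma. This call was not stable. It was just missed with the values as deposited (-1.41, adjusted p = 0.05003 by limma). Over the 8 fits that left out 1 library each, it held without the 2D library of mouse 4 (adjusted p = 0.0287) or mouse 5 (adjusted p = 0.00572), and in the other 6 the adjusted p rose to as much as 0.0791 by limma. Without the 2D libraries of mice 3 and 4 the value was -0.87 (adjusted p = 0.0802 by limma), and with the mouse as a block it was -1.59 (adjusted p = 0.406). The markers of skeletal muscle were at or near 0, with Myog at no more than 0.0491 and Ckm at no more than 0.0547 deposited FPKM in any library. Cryab, the chaperone of desmin, fell from between 88.6 and 745 FPKM in 2D to between 0.934 and 24.9 FPKM in 3D, a log2 fold change of -4.16 (SE 1.00, adjusted p = 0.0121 by limma). Its call was lost when the 2D libraries of mice 3 and 4 were left out (-3.17, adjusted p = 0.066 by limma). An antisense gene, Gm15179, overlaps the 3′ end of Des and was at no more than 0.12 deposited FPKM.

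Synm, which joins filaments of vimentin or desmin and links them to the cell membrane, was higher in 3D. Its level was 0.462, 0.397, 0.314 and 0.432 FPKM for mice 2, 3, 4 and 5 in 2D, and 1.84, 0.831, 1.03 and 1.02 FPKM for mice 1, 4, 5 and 7 in 3D. The groups did not overlap, and the 3D library of mouse 1 was the highest. The mean was 0.401 ± 0.0643 FPKM for the 2D and 1.18 ± 0.451 FPKM for the 3D libraries (SD, n = 4 each). The log2 fold change was 0.62 (SE 0.14, 95% interval 0.30 to 0.94), and limma gave an adjusted p of 0.00878. These levels were low, at about 34.4 to 47.5 fragments per library in 2D and 120 to 271 in 3D. The difference was 0.48 within mouse 4 and 0.50 within mouse 5 on the log2 scale. With the mouse as a block it was 0.49 (adjusted p = 0.148 by limma), and without the 2D libraries of mice 3 and 4 it was 0.58 (adjusted p = 0.0587). In GENCODE M21 the gene lies within the span of Ttc23 on the opposite strand. Ttc23 had 6.59 to 8.28 deposited FPKM in 2D and 9.24 to 27.0 in 3D, with the 3D library of mouse 1 the highest for both genes. The libraries were directional, but no source states that fragments were counted by strand, so reads of the 2 genes may have been mixed, and the part of Ttc23 in the result was not tested.

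Nes, a partner of vimentin that is known from neural and other progenitor cells, did not pass the test and had a wide spread in 2D. Its level was 50.0, 4.84, 4.62 and 28.0 FPKM for mice 2, 3, 4 and 5 in 2D, and 7.10, 12.6, 7.41 and 1.91 FPKM for mice 1, 4, 5 and 7 in 3D. The 2D libraries of mice 2 and 5 were above every 3D library, whereas those of mice 3 and 4 lay among them. The mean was 21.9 ± 21.7 FPKM for the 2D and 7.24 ± 4.35 FPKM for the 3D libraries (SD, n = 4 each). The log2 fold change was -1.04 (SE 0.83, 95% interval -2.97 to 0.88), with an adjusted p of 0.356 by limma, and the interval leaves room for a wide fall or a modest rise. The mice that had both cultures differed in sign, with 1.27 in mouse 4 and -1.79 in mouse 5. Without the 2D libraries of mice 3 and 4, the log2 fold change was -2.37, with an adjusted p of 0.0293 by limma. The part of the mesothelial and keratin transcripts of these libraries in this result was not tested. The glial marker Sox10 was at no more than 0.0984 deposited FPKM in any library.

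**Figure D2:**
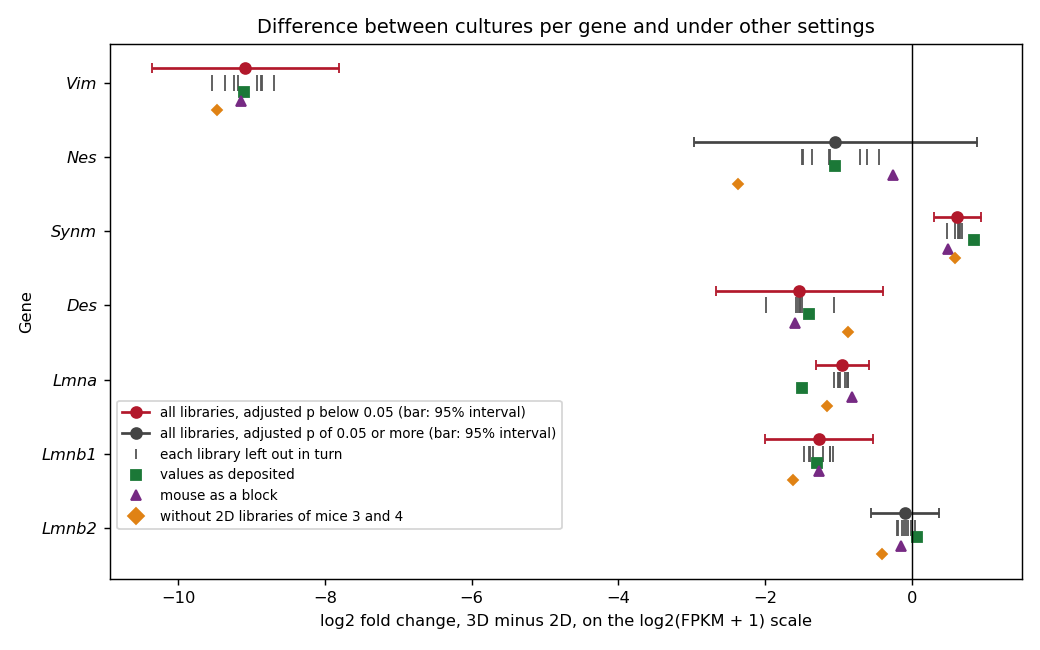
Log2 fold changes of the 7 genes (3D minus 2D, log2(FPKM + 1) scale), with circles and 95% intervals for all libraries, ticks for each library left out in turn, squares for values as deposited, triangles for the mouse as a block and diamonds for the fit without the 2D libraries of mice 3 and 4. Vim stays between -9.53 and -8.69 with 1 library left out, Nes moves from -1.04 to -2.37 without these 2 libraries, and Lmnb2 lies close to 0.

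Lmna was lower in 3D. The A-type lamins are known to be abundant in stiff mesenchymal tissues. Its level was 326, 260, 217 and 313 FPKM for mice 2, 3, 4 and 5 in 2D, and 121, 136, 158 and 156 FPKM for mice 1, 4, 5 and 7 in 3D. Every 2D library was above every 3D library. The mean was 279 ± 50.2 FPKM for the 2D and 143 ± 17.6 FPKM for the 3D libraries (SD, n = 4 each). The log2 fold change was -0.95 (SE 0.15, 95% interval -1.31 to -0.59), and limma gave an adjusted p of 0.00197. The size depended on the scaling, since the values as deposited gave -1.49 (adjusted p = 6.7e-04). The difference was -0.67 within mouse 4 and -0.98 within mouse 5, and -0.82 with the mouse as a block (adjusted p = 0.147 by limma). It was -1.16 (adjusted p = 0.00162 by limma) when the 2D libraries of mice 3 and 4 were left out. Lmna ranked high in both cultures, at 227 to 329 of all listed genes in 2D and 451 to 598 in 3D.

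Lmnb1, a B-type lamin whose level is known to fall in senescent cells, was also lower in 3D. Its level was 30.2, 16.3, 18.3 and 30.6 FPKM for mice 2, 3, 4 and 5 in 2D, and 13.6, 11.3, 7.49 and 5.46 FPKM for mice 1, 4, 5 and 7 in 3D. The groups did not overlap, but the 2D libraries of mice 3 and 4 came close to the 3D library of mouse 1. The mean was 23.8 ± 7.60 FPKM for the 2D and 9.45 ± 3.66 FPKM for the 3D libraries (SD, n = 4 each). The log2 fold change was -1.27 (SE 0.31, 95% interval -2.0 to -0.54), and limma gave an adjusted p of 0.0139. The difference was -0.65 within mouse 4 and -1.90 within mouse 5, and -1.27 with the mouse as a block (adjusted p = 0.251 by limma). It was -1.62 (adjusted p = 0.013 by limma) when the 2D libraries of mice 3 and 4 were left out. Most genes of the cell cycle list were lower in 3D, as Lmnb1 was. Of 8 such genes, 6 were lower in 3D, beside 20.3% of all genes tested, and Mki67 and Top2a did not pass the test. Within mouse 4, Mki67 and Top2a were higher in 3D, at 19.3 and 28.0 FPKM against 12.9 and 19.3 FPKM in 2D. Within mouse 5 both were lower in 3D. Among the 6, Pcna only just passed (adjusted p = 0.04998 by limma), and its libraries overlapped. The deposited FPKM of the 8 genes summed to between 163 and 416 in 2D, highest in mice 2 and 5, and to between 58.9 and 137 in 3D. Their part in the result was not tested.

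Lmnb2, the other B-type lamin, did not pass the test. Its level was 8.76, 5.60, 5.72 and 10.2 FPKM for mice 2, 3, 4 and 5 in 2D, and 7.07, 7.55, 6.06 and 6.58 FPKM for mice 1, 4, 5 and 7 in 3D. The 3D libraries lay within the range of the 2D libraries. The log2 fold change was -0.10 (SE 0.20, 95% interval -0.56 to 0.36), with an adjusted p of 0.716 by limma. Its direction was not fixed, since it was 0.061 with the values as deposited and 0.043 without the 2D library of mouse 5. It was -0.41 (adjusted p = 0.0527 by limma) when the 2D libraries of mice 3 and 4 were left out.

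The make-up of the filament transcripts within each library does not depend on the scaling between libraries when deposited FPKM are used. Vim made up 98.0, 99.6, 99.4 and 99.1% of the summed FPKM of Vim, Nes, Synm and Des in the 2D libraries of mice 2, 3, 4 and 5, and 47.9, 13.6, 39.2 and 18.4% in the 3D libraries of mice 1, 4, 5 and 7. The mean share was 99.0 ± 0.719% for the 2D and 29.8 ± 16.4% for the 3D libraries (SD, n = 4 each), with a two-sided exact permutation p of 0.0286, the smallest that 4 against 4 libraries allow. Nes was the largest of the 4 in 3 of the 3D libraries, and its share was 0.834 ± 0.799% in 2D against 56.5 ± 16.9% in 3D (SD, n = 4 each). Vim and Nes share the sum these percentages are taken from, and the level of Nes itself did not pass the test. The sum itself was between 1781 and 3338 FPKM in 2D and between 3.67 and 19.5 FPKM in 3D.

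Set against the simple epithelial keratins Krt8 and Krt18, which pair in a filament, Vim made up 99.9, 91.9, 76.6 and 99.999% of the summed FPKM of these 3 genes in the 2D libraries of mice 2, 3, 4 and 5. In the 3D libraries of mice 1, 4, 5 and 7 it made up 1.16, 0.200, 0.608 and 0.0781%. The mean share was 92.1 ± 11.0% for the 2D and 0.512 ± 0.489% for the 3D libraries (SD, n = 4 each), with an exact permutation p of 0.0286. The 2D libraries of mice 3 and 4, which held keratin and mesothelial transcripts, had the lowest shares in 2D and were still far above every 3D library. The sum of the 3 genes was between 1931 and 3307 FPKM in 2D and between 804 and 1071 FPKM in 3D.

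Lmna was above Lmnb1 and Lmnb2 in every library. Lmnb1 was above Lmnb2 in each 2D library, but in the 3D library of mouse 7 it was below (5.92 against 7.00 deposited FPKM). Lmna made up 91.0 ± 0.978% of the lamin sum for the 2D and 86.7 ± 3.99% for the 3D libraries (SD, n = 4 each), a difference of -4.33 percentage points with an exact permutation p of 0.0571, and the groups overlapped. With quantile normalized values the difference was -0.46 percentage points. The log2 ratio of Lmna to Lmnb1 was 3.71 ± 0.19 for the 2D and 3.60 ± 0.70 for the 3D libraries (SD, n = 4 each), with an exact permutation p of 0.771. The difference of -0.11 turned to 0.41 with quantile normalized values. The ratio ranged in 3D from 2.83 in mouse 1 to 4.38 in mouse 7. The share of Lmnb2 was chosen after its values were seen and is given as a description only. It was between 1.78 and 2.28% in 2D and between 4.80 and 6.54% in 3D. The sum of the 3 lamins was between 267 and 453 FPKM in 2D and between 118 and 138 FPKM in 3D.

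**Figure D3:**
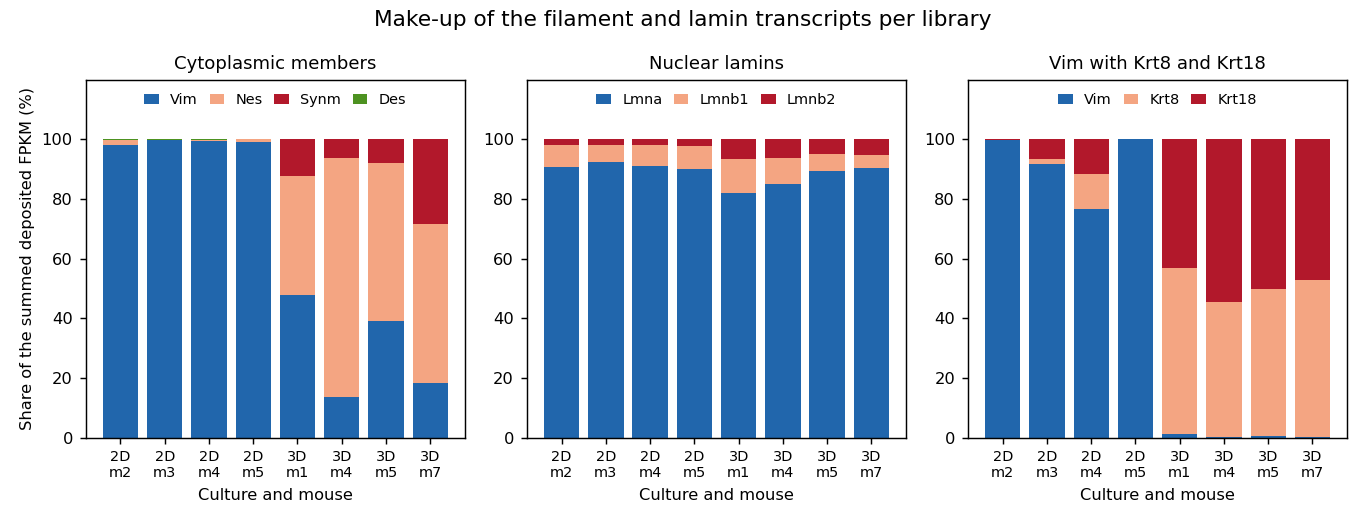
Share (%) of the summed deposited FPKM held by each gene per library, for the 4 cytoplasmic members, the 3 lamins, and Vim with Krt8 and Krt18, with m for mouse. In 2D, Vim fills 98.0% or more of the left stack and 76.6% or more of the right stack, and in 3D 47.9% or less of the left stack, whereas Lmna holds between 81.9 and 92.3% of the lamin stack in every library.

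The genes that work with the filaments and the lamina were counted from lists chosen by function. With the mouse as a block, no gene of these lists passed the adjusted threshold in limma, as no gene of the whole table did. Of 9 other intermediate filament genes outside the keratins, 3 were lower in 3D, 1 was higher and 5 did not pass the test. The share called, 44.4%, was near the 41.5% of all genes tested. Sync, or syncoilin, a partner of desmin in muscle, fell most, from between 5.06 and 7.74 FPKM in 2D to between 0.0354 and 0.0938 FPKM in 3D, a log2 fold change of -2.78 (SE 0.14, adjusted p = 5.8e-06 by limma). Bfsp1 and Prph were lower at no more than 0.499 FPKM in any library. Prph was at 0 in every 3D library, so it entered the test through its 2D libraries alone. Its deposited 2D mean was 1.55-fold the level that 3 fragments would give. Nefh, a neurofilament subunit, rose by 0.21 (SE 0.05, adjusted p = 0.0115 by limma). Its libraries overlapped at low levels, with 0 to 0.114 FPKM in 2D and 0.112 to 0.248 FPKM in 3D. Nefl and Nefm, also neurofilament subunits, went the other way but did not pass the test. They ranged from 0 to 1.91 and from 0 to 3.35 deposited FPKM in 2D and were at 0 in every 3D library. The call of Prph was lost in 6 of 8 fits with 1 library left out and held without the 2D library of mouse 3 or 5. Over these 9 genes the log2 fold changes had a median of -0.28, or of -0.63 with 4 genes near 0 in a culture set to their bounds, beside 0.0012 over all genes tested.

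All 7 genes of the list of cytolinkers and the desmin chaperone Cryab passed the test, and they split in direction. In 3D, 3 were higher and 4 lower, beside 21.2% and 20.3% of all genes tested. The plakins known from epithelia rose. Ppl (periplakin) went from between 0.0885 and 13.4 FPKM in 2D to between 16.0 and 42.5 FPKM in 3D, a log2 fold change of 3.65 (SE 0.82, adjusted p = 0.00918 by limma), and Eppk1 (epiplakin) and Evpl (envoplakin) rose by 2.20 and 1.77. The broadly expressed linkers were lower, with Dst (dystonin) at -1.43, Plec (plectin) at -0.80 and Macf1 at -0.37 on the log2 scale. The call of Plec was lost without the 2D library of mouse 2 or 5 or the 3D library of mouse 5 or 7, and that of Macf1 held in 2 of the 8 fits that left out 1 library, without the 2D library of mouse 2 or the 3D library of mouse 1. The adjusted p rose to 0.0574 and 0.0792 by limma. Macf1 also lost its call when the 2D libraries of mice 3 and 4 were left out (-0.26, adjusted p = 0.178 by limma). The median of the list was -0.37.

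The LINC complex joins the cytoskeleton to the lamina through the nuclear envelope. Of 9 genes of this complex and of torsin, 3 were higher, 3 were lower and 3 did not pass the test. The share called was 66.7%, beside 41.5% of all genes tested. The nesprins changed in opposite directions. Syne4, which binds kinesin and so positions the nucleus in epithelial cells, went from no more than 0.104 FPKM in 2D to between 21.4 and 41.9 FPKM in 3D, a log2 fold change of 4.82 (SE 0.20, adjusted p = 2.3e-06 by limma). Its 2D values lay under the level of 3 fragments per library, so its fold change is imprecise, and the fitted value understates the rise. The deposited mean of 27.6 FPKM in 3D was 181-fold the 0.152 FPKM that 3 fragments would give. Syne2, which binds actin, rose by 2.44. Syne3, which binds plectin and so intermediate filaments, fell by 1.81 on the log2 scale (SE 0.31, adjusted p = 0.0025), and Syne1 fell by 1.56. The SUN proteins, which bind the lamina, differed less, with Sun1 at 0.45 and Sun2 at -0.57, and with 1 library left out both calls were lost in 6 of 8 fits, with the adjusted p up to 0.1 and 0.101 by limma. Without the 3D library of mouse 4 both held, as did Sun1 without the 2D library of mouse 5 and Sun2 without that of mouse 4. Sun1 did not pass when the 2D libraries of mice 3 and 4 were left out (0.28, adjusted p = 0.238 by limma) or with the values as deposited (0.35, adjusted p = 0.107). The median of the list was 0.11.

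Of 7 lamina-binding proteins, 3 were lower, 1 was higher and 3 did not pass the test, with a median of -0.24. The share called was 57.1%, beside 41.5% of all genes tested. Emd, or emerin, an inner nuclear membrane protein that binds lamin A, fell from between 28.7 and 41.7 FPKM in 2D to between 17.0 and 23.4 FPKM in 3D, a log2 fold change of -0.81 (SE 0.15, adjusted p = 0.00373 by limma). Banf1 and Lemd2 were lower by 0.61 and 0.36 on the log2 scale, and Ankle2 was higher by 0.26 (SE 0.07, adjusted p = 0.0198). Lbr and Tmpo, which bind B-type lamins or chromatin, had log2 fold changes of -0.24 and 0.32 and did not pass. The count rested on single libraries, since 1 gene was called without the 2D library of mouse 2 and 2 without that of mouse 5. Lemd2 did not pass when the 2D libraries of mice 3 and 4 were left out (-0.31, adjusted p = 0.0915 by limma). None of the 5 enzymes that process the lamin tail (Fnta, Fntb, Rce1, Icmt and Zmpste24) passed the test by limma, with adjusted p values between 0.0839 and 0.975 and a median log2 fold change of -0.02, and 1 had an unadjusted p below 0.05. This was Zmpste24, the protease that matures lamin A, which had a log2 fold change of -0.29 and was called without the 2D library of mouse 3. Fntb was called without the 2D libraries of mice 3 and 4, at -0.93.

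**Figure D4:**
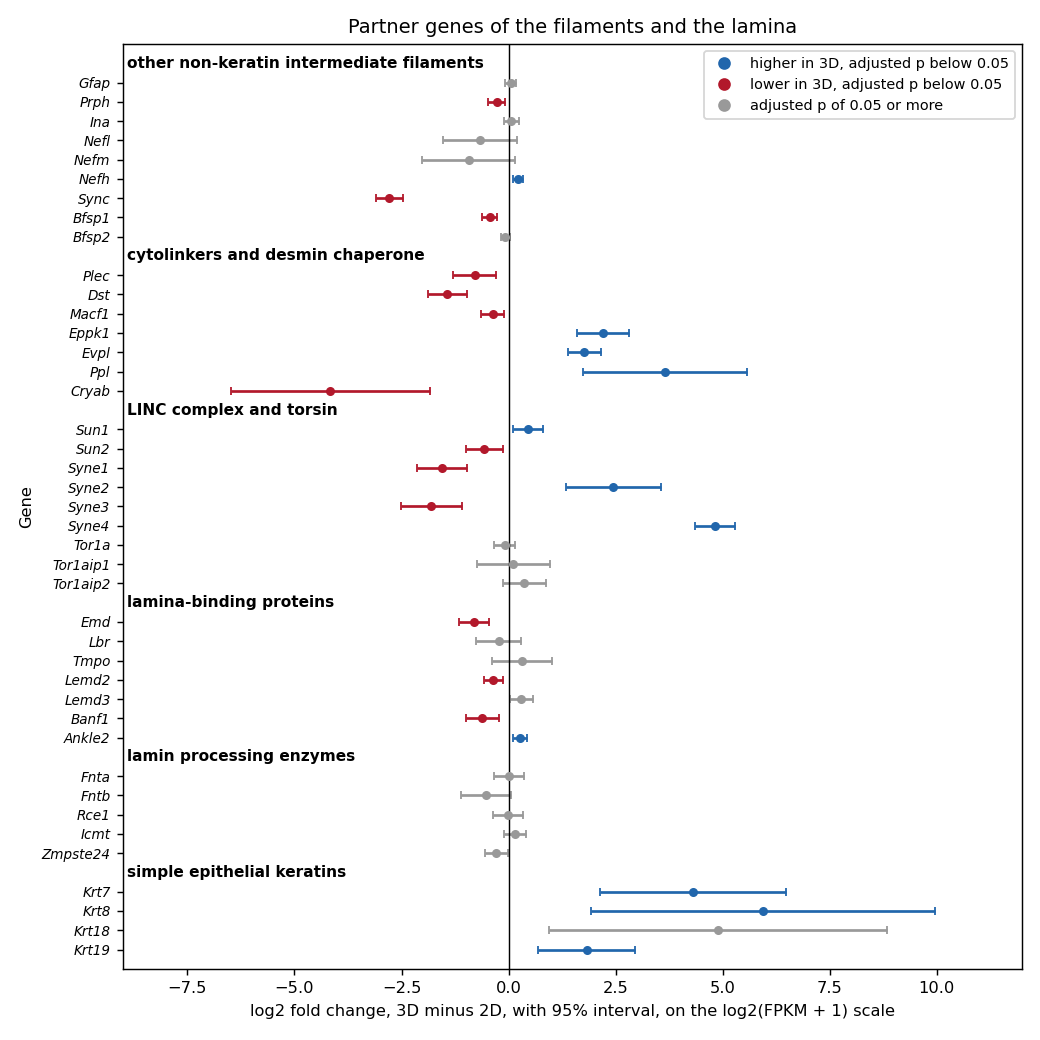
Log2 fold changes (3D minus 2D, log2(FPKM + 1) scale) with 95% intervals for the genes of 6 lists, in blue where higher and in red where lower in 3D with an adjusted p below 0.05, and in grey otherwise. The nesprins and the list of cytolinkers with Cryab lie on both sides of 0, from -4.16 for Cryab to 4.82 for Syne4. The 5 lamin processing enzymes lie near 0.

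The 4 simple epithelial keratins were listed for comparison. Krt7, Krt8 and Krt19 were higher in 3D and Krt18 did not pass the test, with a median log2 fold change of 4.60. The share called higher was 75%, beside 21.2% of all genes tested. Krt8 rose by 5.94 (SE 1.73, adjusted p = 0.0268 by limma). With 1 library left out, its call held in 2 of 8 fits, those without the 2D library of mouse 3 or mouse 4. Krt18 had a log2 fold change of 4.89 (adjusted p = 0.0519), and its libraries did not overlap. Without the 2D libraries of mice 3 and 4 the log2 fold change was 9.09 for Krt8 (adjusted p = 2.6e-06) and 8.06 for Krt18 (adjusted p = 2.4e-04), both by limma. Krt19 did not pass with the values as deposited (1.36, adjusted p = 0.0567 by limma). In turn, 1 of the 4 genes was called without the 2D library of mouse 2 or 5 or the 3D library of mouse 5 or 7. The 2D libraries with high Krt8 and Krt18 levels, those of mice 3 and 4, were the 2D libraries in which Nes and Lmnb1 were low. Krt7 and Krt19 stood out in the 2D library of mouse 4 alone.

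**Figure D5:**
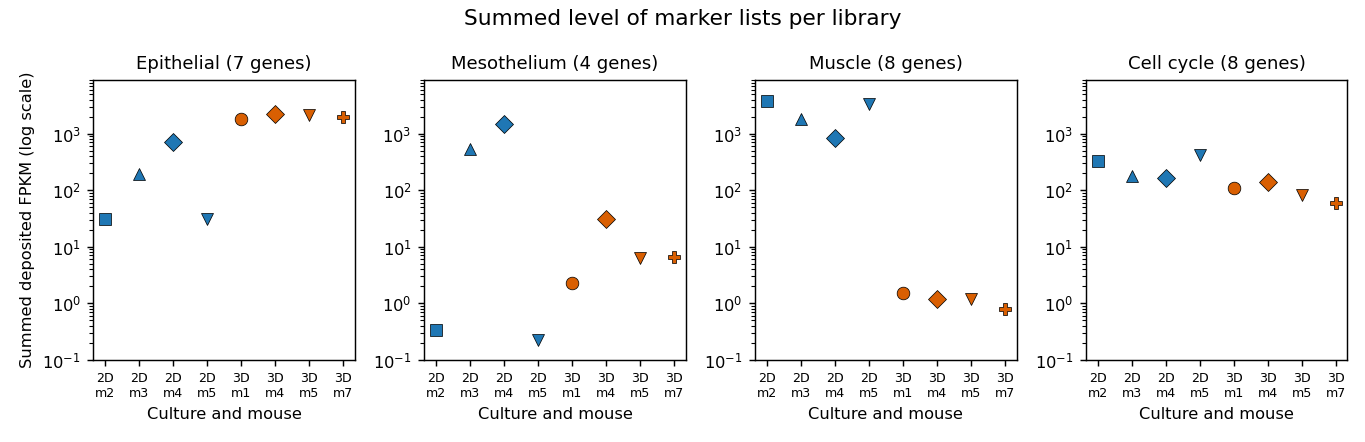
Summed deposited FPKM (log scale) of 4 marker lists in each library, with 2D in blue, 3D in orange and m for mouse. The muscle list lies at 832 or more in 2D and at 1.54 or less in 3D, and the mesothelial list reaches 528 and 1506 in the 2D libraries of mice 3 and 4.

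The genes whose pattern over the 8 libraries was most like that of a member were listed by Pearson's r of log2 levels among 12582 other genes, or 12583 for Synm, with a mean of at least 1 FPKM. These values are descriptions that share their libraries and the split between cultures. Soat1, Itgb1 (integrin beta 1) and Gnas followed Vim at r of 0.997, 0.996 and 0.995. Iqgap1, BC055324 and Hist1h4b followed Nes at 0.977, 0.972 and 0.964. For Synm, Fam167a, Armc3 and Traf3ip1 were the nearest, at 0.992 each, and for Des, Mcpt8, Cck and Rarres2 at 0.988, 0.986 and 0.974. The nearest to Lmna were Zfp647, Lmf2 and Smyd2, at 0.995, 0.993 and 0.993. Lmnb1 was followed by Pdgfa, by Rrm2, the small subunit of ribonucleotide reductase that makes DNA precursors, and by Taf9, at 0.992, 0.991 and 0.990. Lmnb2 was followed by 4930427A07Rik, Polr3g and Rbl1 at 0.980, 0.980 and 0.970.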

How the data were processed

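Total RNA of 8 ADSC cultures was made into directional libraries after depletion of ribosomal RNA and sequenced in pairs. The authors used FASTX_Trimmer and BBMap for trimming, TopHat for mapping (to mm10 per the submitters' processing notes) and Cufflinks for the deposited FPKM values per gene. The annotation is not given in the sources used here. The study names a quantile normalization as its next step, which the deposited FPKM values do not include.

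Genes at 0 in every library (5484 of 24346) were left out. The other 18862 were quantile normalized, converted to log2(FPKM + 1) and fitted with limma 3.58.1 in R 4.3.3 with an intensity trend and no covariates. Adjusted p values (Benjamini-Hochberg) cover all genes tested, and a gene passed below 0.05. Shares were compared on deposited FPKM with a two-sided exact permutation test of the difference in means. With 1 library per mouse and culture, the spread is that between libraries of different mice. It does not separate the mouse from its culture and library preparation. Normalization made the highest values alike between libraries.

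Depth was estimated from the spacing of low FPKM values in genes that have 1 transcript, 3000 nt or longer. Per library, 65.8 to 78.2% of these values lay within 0.15 of a whole multiple. Read counts were not recovered, and estimated fragments and floors (the FPKM of 3 fragments) cover counting error only. Lengths and positions came from GENCODE M21, to which 23310 genes (95.7%) were matched by symbol. The promoter table held 1 window each for Vim, Nes, Synm and Des, and none of Nes, Lmna and Lmnb2 is shown. The model was tested on simulated data.

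The numbers in the titles pair mice 4 and 5. Over 12577 genes, the 2D and 3D deviations from the mean of each culture had a correlation of -0.0526 in mouse 4 and -0.113 in mouse 5. The mouse was used as a block (1 residual degree of freedom) and as a random effect (correlation -0.0439).

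Other alternatives were the deposited values, a pseudocount of 0.1, no intensity trend, a mean of 1 FPKM or more, genes under 300 nt left out, mice 4 and 5 alone, and leaving out each library in turn. Leaving out the 2D libraries of mice 3 and 4 together was chosen after seeing the data. The members and gene lists were chosen with earlier results of these data known. Named are the 7 members, the genes of the partner lists, with values for the lowest and highest log2 fold change among those called and for genes set beside a member, and the 3 genes most correlated with each member. Markers of 10 cell types and states were checked, and those of mesenchymal stem cells, epithelium, mesothelium, muscle and cell cycle are given beside the results. Among the other lists, Rgs5 of the pericytes was lower and Notch3 higher, and 3 pericyte markers did not pass. Of 5 macrophage markers, Cd68 was higher and 4 did not pass. Among these 4, Lyz2 was at 0.203 to 19.6 deposited FPKM in 2D and at 0 in every 3D library. Of 5 neural and glial markers, Sox10 was higher and 4 did not pass. Sox10 was at no more than 0.0984 deposited FPKM, near the 0.0743 FPKM that 3 fragments would give. None of the endothelial or adipocyte markers passed by limma (1 endothelial and 0 adipocyte markers had an unadjusted p below 0.05), and Adipoq and Lep were at 0.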

Additional observations from a re-analysis of the deposited data

Results flagged for a closer look

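Of 43 groups of 4 libraries that were checked for a library far from the others (Dixon's test), 3 had one, and chance gives about 1 in 20. On the log2(quantile normalized FPKM + 1) scale, Nefh in the 2D library of mouse 3 was at 0.156, with the other 2D libraries between 0 and 0.00492. Syne3 in the 2D library of mouse 5 was at 3.11, with the others between 1.96 and 2.15. Krt19 in the 2D library of mouse 4 was at 6.78, with the others between 4.73 and 5.03. None of the 7 members had such a library in either culture.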

How the results depend on the processing

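With the mouse as a block, limma called 0 genes higher and 0 lower among all genes, 0 of the 7 members and 0 in each partner list and the keratins (log2 fold changes of Vim -9.15, Synm 0.49, Des -1.59, Lmna -0.82 and Lmnb1 -1.27). With only mice 4 and 5, 1788 genes were higher and 1432 lower, and 1 member was called. In the other lists, 3 genes of the cytolinker list with Cryab, 1 LINC gene and 0 lamina-binding or keratin genes were called. Synm (0.50), Des (-1.59), Lmna (-0.83) and Lmnb1 (-1.28) were not past the threshold. Both fits take the difference from mice 4 and 5. A pseudocount of 0.1, no intensity trend, genes under 300 nt left out and the mouse as a random effect changed none of the calls of the 7 members. As deposited, Des was -1.41 and lost its call (4 members called), Lmnb2 turned to 0.061 and 1 processing enzyme was called. When a mean of 1 FPKM or more was required, 1 other filament gene was called, and Synm was not tested. Without the 2D libraries of mice 3 and 4, Nes passed at -2.37, Synm (0.58) and Des (-0.87) did not, and 1 processing enzyme was called. The log2 ratio of Lmna to Lmnb1 turned to 0.41 on quantile normalized values. The cause of these changes was not tested.

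With each library left out in turn, 3393 to 4051 genes were higher and 3204 to 3835 lower. Between 4 and 5 members were called, 3 to 4 other filament genes and 5 to 7 genes of the cytolinker list with Cryab. The calls also covered 4 to 6 LINC genes, 1 to 4 lamina-binding proteins, 0 to 1 processing enzymes and 1 to 4 keratins. Log2 fold changes ranged from -9.53 to -8.69 for Vim, -1.5 to -0.45 for Nes, 0.47 to 0.69 for Synm, -1.99 to -1.07 for Des, -1.06 to -0.87 for Lmna, -1.47 to -1.07 for Lmnb1 and -0.21 to 0.043 for Lmnb2, the positive value without the 2D library of mouse 5. Differences in share ranged from -5.60 to -2.73 percentage points for Lmna, -75.3 to -63.9 for Vim among the cytoplasmic genes, -96.8 to -89.0 for Vim with the keratins and 47.8 to 61.2 for Nes, and the log2 ratio of Lmna to Lmnb1 from -0.37 to 0.15. Among the 7 members, low depth bears on Des, Synm in 2D and Vim in 3D, where some libraries held fewer than 50 estimated fragments.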
